A study of Mus musculus with 6 samples.

Results

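The 10 genes of MHC class I and class II antigen presentation described here were the class II set Cd74, H2-Aa, H2-Ab1, H2-Eb1 and Ciita and the class I set H2-K1, H2-D1, B2m, Tap1 and Tapbp. They were chosen by name, by matching the symbol (current or a synonym) that the platform annotation gives each probe, and were found at 21 of the 45281 probes and among 20289 measured genes. The RNA came from mouse embryonic fibroblasts (MEFs) of C57BL6 mice at embryonic day 13.5. Both groups carried a stably expressed short hairpin RNA (shRNA), which lowers the RNA it is directed against: the control group was 3 arrays of cells with GFP shRNA, and the other group was 3 arrays of cells with shRNA directed at Ube2o, the gene of a ubiquitin-conjugating enzyme. A single shRNA label stood for each group, so that the loss of UBE2O and other effects of that hairpin cannot be told apart, and the labels mention no interferon treatment.

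MHC class I molecules carry peptides of cytosolic proteins to the surface of almost all nucleated cells. Their heavy chain is paired with β2-microglobulin and is loaded in the endoplasmic reticulum with peptides that the TAP transporter brings in and tapasin helps to place. MHC class II molecules carry peptides of endosomal proteins and are made chiefly by dendritic cells, macrophages and B cells, where the transactivator CIITA switches on their genes and the invariant chain, the product of Cd74, guards the peptide groove until the endosome. Fibroblasts make class I constitutively and make class II mainly after interferon gamma has induced Ciita. C57BL/6 mice carry the b haplotype of the MHC, which lacks a functional H2-Ea and so the class II molecule I-E.

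The promoters of 5 members are shown because class I and class II genes are known to share an upstream module, bound by the RFX, CREB and NF-Y factors that CIITA and NLRC5 act through, and because the class I members shown were above background on these arrays while the class II members shown were not, apart from 1 array for H2-Eb1. They are RefSeq sequences of GRCm38.p6, from 250 bases before to 50 after the annotated start, 5′ to 3′ on the gene's strand. Capitals mark the letters of 3 motifs searched on both strands: TGACG, the core of the X2 box, ATTGG, the inverted CCAAT box, and AANNGAAA, the interferon regulatory factor element. The first 3 sequences are of class I genes and the last 2 of class II genes.
H2-K1 chr17:34000298-34000597 (minus strand): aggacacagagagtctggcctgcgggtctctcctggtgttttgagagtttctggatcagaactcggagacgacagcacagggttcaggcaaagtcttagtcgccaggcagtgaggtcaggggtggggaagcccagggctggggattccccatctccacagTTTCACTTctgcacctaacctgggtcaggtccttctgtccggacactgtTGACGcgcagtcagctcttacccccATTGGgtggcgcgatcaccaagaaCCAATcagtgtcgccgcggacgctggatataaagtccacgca
H2-D1 chr17:35262844-35263143 (plus strand): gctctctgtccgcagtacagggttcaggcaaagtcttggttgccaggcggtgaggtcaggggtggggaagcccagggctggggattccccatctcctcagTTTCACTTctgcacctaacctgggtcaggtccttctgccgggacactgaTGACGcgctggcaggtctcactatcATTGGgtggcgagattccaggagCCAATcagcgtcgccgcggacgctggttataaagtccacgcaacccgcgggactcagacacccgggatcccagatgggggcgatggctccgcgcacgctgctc
B2m chr2:122147437-122147736 (plus strand): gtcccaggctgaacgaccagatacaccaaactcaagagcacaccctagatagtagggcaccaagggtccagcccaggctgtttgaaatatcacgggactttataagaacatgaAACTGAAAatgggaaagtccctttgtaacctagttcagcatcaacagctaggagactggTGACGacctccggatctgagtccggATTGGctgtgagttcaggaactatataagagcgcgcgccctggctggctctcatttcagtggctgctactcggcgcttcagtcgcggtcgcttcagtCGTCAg
H2-Aa chr17:34287774-34288073 (minus strand): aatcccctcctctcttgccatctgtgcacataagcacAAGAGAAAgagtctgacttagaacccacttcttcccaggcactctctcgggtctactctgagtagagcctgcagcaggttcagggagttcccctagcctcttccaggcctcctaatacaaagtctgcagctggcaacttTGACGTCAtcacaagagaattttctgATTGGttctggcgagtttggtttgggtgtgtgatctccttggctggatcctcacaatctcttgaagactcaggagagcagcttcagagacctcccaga
H2-Eb1 chr17:34305617-34305916 (plus strand): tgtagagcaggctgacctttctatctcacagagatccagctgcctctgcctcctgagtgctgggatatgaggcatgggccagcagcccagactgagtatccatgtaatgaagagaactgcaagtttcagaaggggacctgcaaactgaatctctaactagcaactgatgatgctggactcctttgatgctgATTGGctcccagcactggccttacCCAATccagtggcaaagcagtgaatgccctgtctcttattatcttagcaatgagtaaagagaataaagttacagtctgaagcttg
In H2-K1, H2-D1 and B2m the first base of TGACG lay 25 bases before the first base of ATTGG, and in H2-Aa 26 bases before it. H2-Eb1 held ATTGG and no TGACG in its window. Only these exact letters were searched, so a variant of the X2 box would not have been marked. TGACG followed by ATTGG after a gap of 15 to 25 bases, a range set after these windows had been read, stood in 0.435% of 32851 promoter windows of the same length. TGACG alone stood in 20.8% of them, ATTGG in 37.4% and AANNGAAA in 23.9%. AANNGAAA was found in the windows of H2-K1, H2-D1, B2m and H2-Aa. TGACG on one strand overlaps TGACG on the other in H2-Aa, and the letters of the other motifs did not overlap. No window was used for Cd74, H2-Ab1 or Ciita, so their promoters were not searched and nothing is said of them here. Windows were used for 7 of the 10 genes. The 2 not printed, of the class I genes Tap1 and Tapbp, did not hold the pair: Tap1 had TGACG with its only ATTGG on the other strand, 222 bases before the start, and Tapbp had ATTGG and no TGACG. H2-K1 has a further, overlapping window that held the same motifs.

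Ube2o itself was 2.74-fold lower in the arrays of its own shRNA, with deposited signals of 1875 to 2091 in the control and 650 to 851 with Ube2o shRNA. All 12 fibroblast markers, among them Col1a1, Vim and Thy1, lay above background on every array. Above background means above a limit inferred from each array's own dim probes, which lay between 157 and 177 in units of deposited signal, and 44.6% to 47.0% of the probes passed it. Deposited signals are not scaled between arrays, and the array of Ube2o shRNA replicate 1 had the lowest median (153, against 164 to 174 on the other 5), so groups were compared on normalized log2 values. Of all genes, taken at their brightest probe, 2.91% were called higher and 3.95% lower with Ube2o shRNA, 6.86% in all (limma, adjusted p under 0.05), and of the genes above background on at least 3 arrays 5.18% and 6.99%, 12.2% in all. The submitters call the MEFs of each shRNA independent without saying from which embryos they came, so the p-values reflect array-to-array spread only, part of which may be technical.

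Of the 10 antigen presentation genes 1 fell with Ube2o shRNA, 0 rose and 9 did not pass the test, against 3.95% lower and 2.91% higher among all genes. The 1 that fell was Cd74. By limma 2 of the 10, Cd74 and H2-Eb1, had an unadjusted p under 0.05. Groups did not overlap for 1 of the 10, Cd74, against 12.9% of all genes lower and 12.7% higher, and among genes above background on at least 3 arrays 19.1% lower and 19.1% higher. Over the 21 probes 2 fell, both of Cd74, and 0 rose, against 2.69% lower, 2.25% higher and 4.94% in either direction among all probes. The median log2 change of the 10 genes was -0.024, and that of all 20289 genes was 0.0027. Genes at background enter both medians. Among genes above background on at least 3 arrays the medians were -0.039 for 6 members and 0.0044 for all. Of the 10, 6 lay above background on every array, namely Cd74, H2-K1, H2-D1, B2m, Tap1 and Tapbp, and 3, H2-Aa, H2-Ab1 and Ciita, on none.

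**Figure D1:**
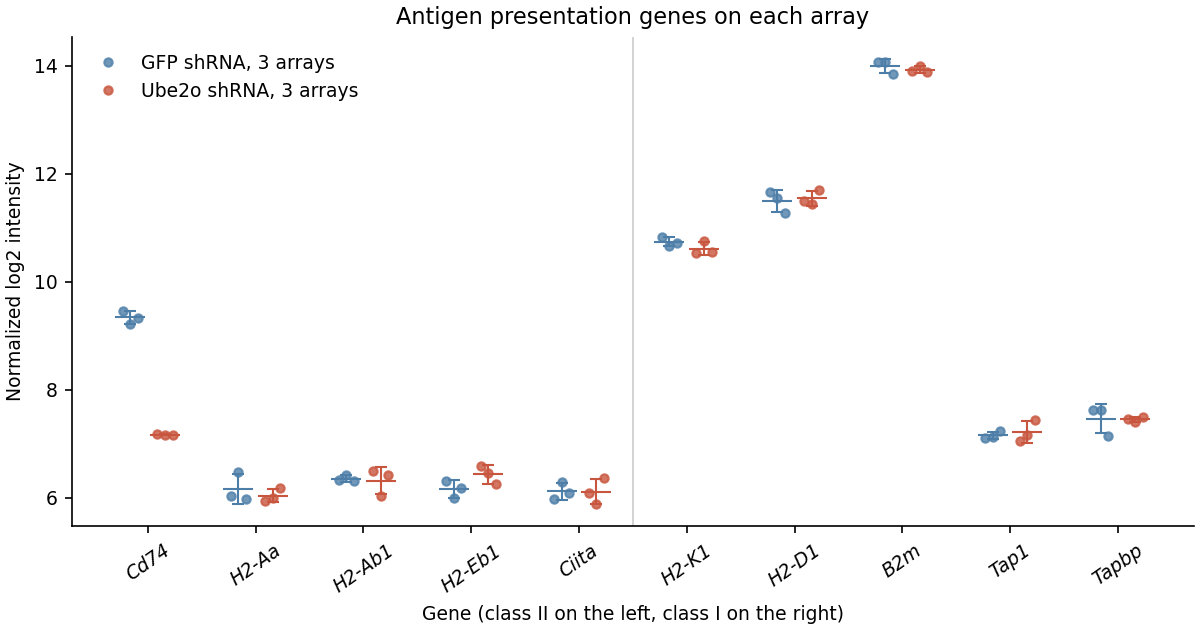
Normalized log2 intensity (vertical axis) of the brightest probe of each of the 10 genes (horizontal axis), with 1 point per array, a bar at the mean of 3 arrays and an error bar of 1 SD. Cd74 is the gene whose groups are far apart, at 9.34 with GFP shRNA and 7.17 with Ube2o shRNA, while H2-Aa, H2-Ab1, H2-Eb1 and Ciita stay between 5.90 and 6.59 in both groups. Heights of different genes are not comparable, since each probe binds differently.

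Cd74 encodes the invariant chain, the chaperone that keeps class II molecules from binding peptide too early. It is also a surface receptor for the cytokine MIF. At its brightest probe GFP shRNA replicates 1, 2 and 3 had deposited signals of 756, 698 and 798. The same probe gave 198, 231 and 218 on those of Ube2o shRNA. The highest array with Ube2o shRNA thus stood far below the lowest control array. The normalized log2 intensity was 9.34 ± 0.12 (SD, n = 3) in the control and 7.17 ± 0.012 (SD, n = 3) with Ube2o shRNA. This was a fall of 4.50-fold, with a log2 change of -2.17 (SE 0.11, 95% interval from -2.41 to -1.93, adjusted p = 1.41e-09). Among all 20289 genes 13 had a more negative change. With Ube2o shRNA the signal still passed the background limit on all 3 arrays, by little, and background correction therefore bears on the size of this fold. In bulk RNA, fewer cells of a type and less RNA per cell cannot be told apart.

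A second probe of Cd74 gave 798, 652 and 742 in the control and 174, 212 and 195 with Ube2o shRNA. Its fall was 5.23-fold, with a log2 change of -2.39 (SE 0.13, adjusted p = 1.51e-09). The annotation ties these probes to different RefSeq transcripts of Cd74, the brightest to NM_001042605.1 and the second to NM_010545.3, and both fell by similar amounts with overlapping intervals. Its remaining probe, tied to the same transcript as the brightest, lay at the edge of background, with 185, 174 and 176 in the control and 154, 164 and 171 with Ube2o shRNA. It passed the limit on 2 of 3 control arrays and on 0 of 3 with Ube2o shRNA, and it did not pass the test (log2 change -0.15, adjusted p = 0.573).

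The fall of Cd74 passed the test in each of the 16 alternative ways of processing, including each array left out in turn. Its log2 change was -1.71 with no background correction, -1.78 in the authors' series matrix values and -2.48 with a smaller background offset. When the 3 probes were averaged, the near-background probe included, it was -1.57, or 2.97-fold, the smallest of these values and more than 1.5 times below the reported fold. Without any 1 array it lay between -2.23 and -2.11.

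**Figure D2:**
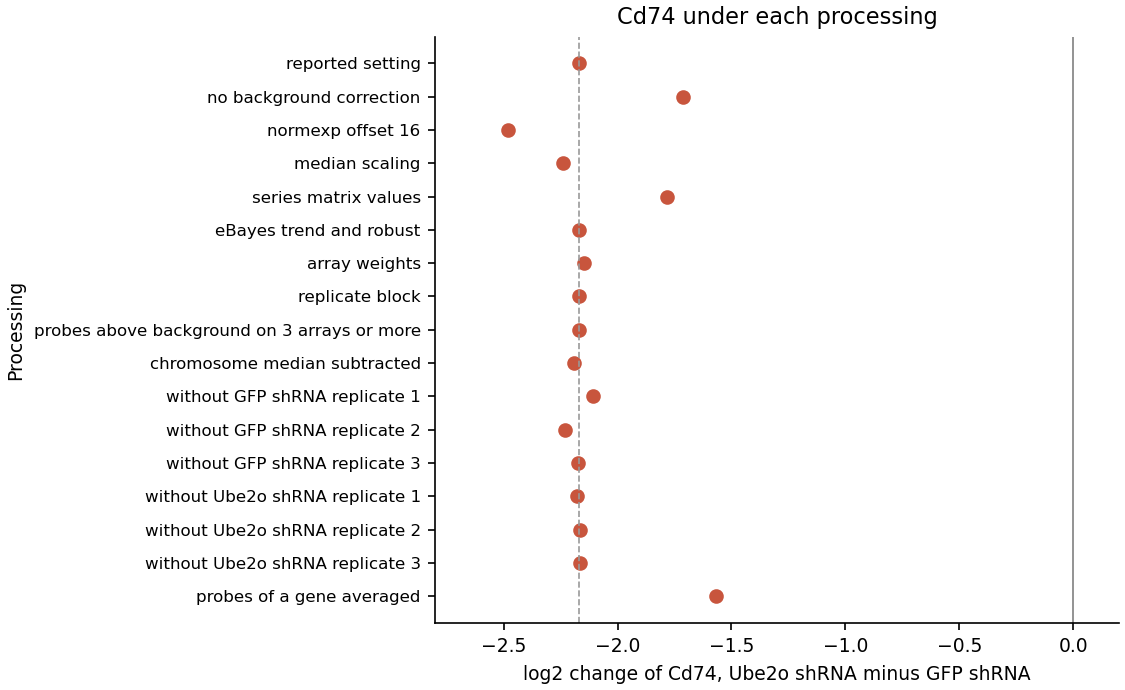
Log2 change of Cd74, Ube2o shRNA minus GFP shRNA (horizontal axis), with 1 point for each way of processing (vertical axis) and a dashed line at the reported value of -2.17. All points lie between -2.48 and -1.57, and the values with 1 array left out between -2.23 and -2.11.

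Both chains of I-A, H2-Aa and H2-Ab1, lay at background on all 6 arrays. H2-Aa encodes the α chain of I-A, the class II molecule of this strain, and its probe gave 144, 164 and 145 in the control and 128, 145 and 151 with Ube2o shRNA. H2-Ab1 encodes the β chain of I-A, and its brightest probe gave 159, 161 and 162 in the control and 154, 146 and 165 with Ube2o shRNA. All of these values lie under the background limit of their arrays, and the groups overlap. The same was true of the other 2 probes of H2-Ab1 as regards background. One of these had groups that did not overlap, with normalized log2 values of 6.32 to 6.38 in the control and 6.22 to 6.24 with Ube2o shRNA, and an adjusted p = 0.689. Groups did not overlap, with Ube2o shRNA lower, for 10.3% of all probes.

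H2-Eb1 encodes the β chain of I-E. Its probe gave 159, 138 and 155 in the control and 158, 171 and 155 with Ube2o shRNA, and passed the background limit on 1 array, Ube2o shRNA replicate 1. Its adjusted p was 0.29. Ciita encodes the class II transactivator, and 2 probes measured it, 1 of them under the older symbol C2ta. The first gave 142, 153 and 151 in the control and 134, 140 and 161 with Ube2o shRNA, and the second 155, 152 and 141 against 127, 139 and 134. Neither lay above background on any array, and their adjusted p-values were 0.996 and 0.289. A level under background is a bound on these arrays, so no fold is given for H2-Aa, H2-Ab1, H2-Eb1 or Ciita. Cd74 was thus measured, and fell, in cells where H2-Aa, H2-Ab1 and Ciita lay at background on all 6 arrays.

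The class I chains H2-K1, H2-D1 and B2m were above background at their brightest probes on every array and did not pass the test. H2-K1 encodes the heavy chain of H-2K, and its brightest probe gave 1840, 1767 and 1964 in the control and 1305, 1981 and 1504 with Ube2o shRNA. After normalization the log2 values were 10.74 ± 0.085 and 10.62 ± 0.13 (SD, n = 3 each), with ranges that overlap. The log2 change was -0.12 (adjusted p = 0.676), and its 95% interval ran from -22.6% to 8.66%. A further probe of H2-K1 lay above background on 2 of 3 control arrays and on 0 with Ube2o shRNA (adjusted p = 0.434). H2-D1 encodes the heavy chain of H-2D, and its brightest probe gave 3310.1, 3116 and 2841 in the control and 2515, 3115 and 3237 with Ube2o shRNA. The log2 change was 0.048 (adjusted p = 0.912), with a 95% interval from -14.1% to 24.4%. A second bright probe of H2-D1 had a log2 change of 0.055, and its remaining probe lay at background on all arrays. Class I heavy chains are close relatives of each other, so a probe for one may also bind RNA of others, which these files cannot separate.

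B2m encodes β2-microglobulin, the light chain of every class I molecule. Its brightest probe gave 18809.5, 16952 and 16043 in the control and 13137, 17699 and 14422 with Ube2o shRNA. On the normalized scale the means were 13.99 ± 0.13 and 13.93 ± 0.060 (SD, n = 3 each), and the groups overlap. The log2 change was -0.065 (adjusted p = 0.855), and its 95% interval ran from -19.2% to 13.1%. A second bright probe of B2m had a log2 change of -0.094 with groups that did not overlap and an adjusted p = 0.756. The remaining, dim probe lay at background on every array, whereas the brightest and second probes lay above it on every array.

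The loading genes were dim and did not pass either. Tap1 encodes a subunit of the peptide transporter, and its probe gave 216, 219 and 242 in the control and 187, 231 and 249 with Ube2o shRNA. The log2 change was 0.066 (adjusted p = 0.865), with an interval from -12.5% to 25.3%. Tapbp encodes tapasin, which bridges the transporter and the class I heavy chain. Its brightest probe gave 269, 279 and 233 in the control and 222, 261 and 255 with Ube2o shRNA, for a log2 change of -0.013 (adjusted p = 0.979) and an interval from -18.3% to 20.2%. Its other probe, tied to another transcript, gave 204, 199 and 225 in the control and 206, 247 and 253 with Ube2o shRNA. On the normalized scale all 3 arrays with Ube2o shRNA were above the 3 controls at that probe, with a log2 change of 0.36 (SE 0.11, adjusted p = 0.0856). It passed with no background correction (adjusted p = 0.0418), in the series matrix values (adjusted p = 0.0354) and with dim probes filtered out (adjusted p = 0.0282). Groups did not overlap, with Ube2o shRNA higher, for 11.1% of all probes. For these 5 class I genes the intervals of the brightest probes reach from -22.6% to 25.3%, and do not show that the levels were equal.

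**Figure D3:**
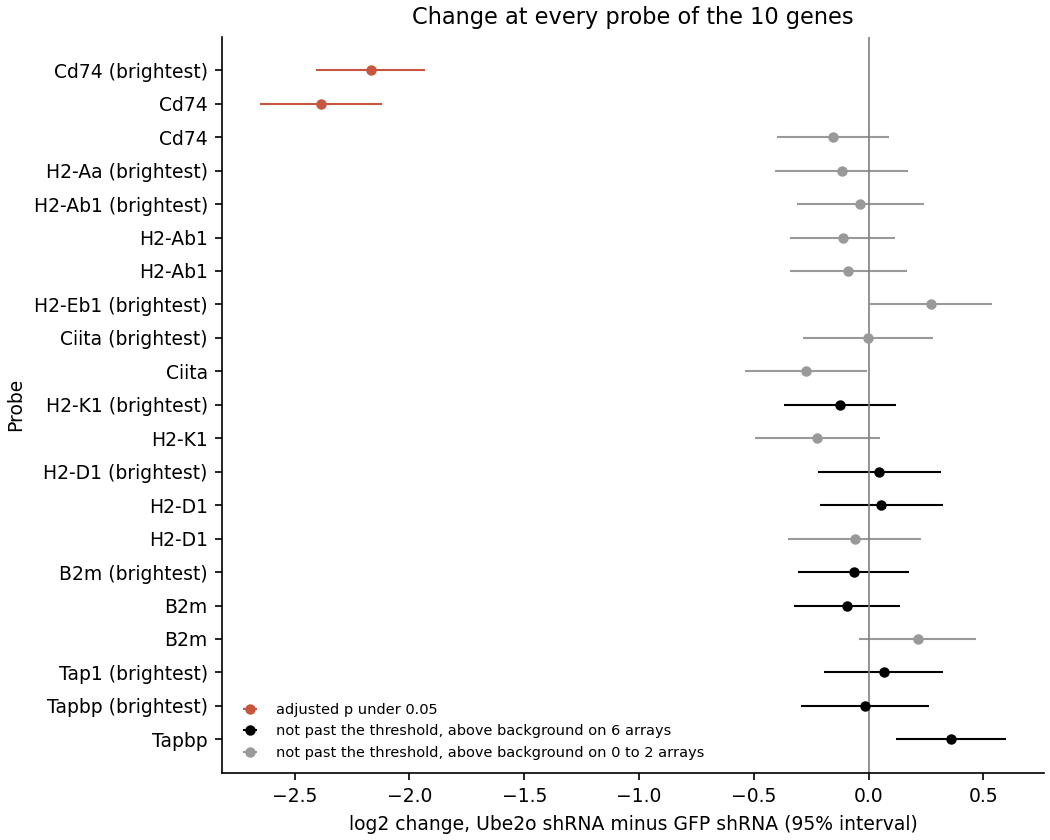
Log2 change, Ube2o shRNA minus GFP shRNA (horizontal axis), at each of the 21 probes of the 10 genes (vertical axis), with 95% intervals from the limma fit. The 2 bright probes of Cd74 lie at -2.17 and -2.39, and the other 19 probes lie between -0.27 and 0.36, with grey marking those above background on 0 to 2 of the 6 arrays.

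Of 14 measured genes that make, trim or load class I peptides, 4 fell, 1 rose and 9 did not pass, with a median log2 change of -0.10, against 3.95% lower and 2.91% higher among all genes and 6.99% and 5.18% among those above background on at least 3 arrays. Psme1 and Psme2 encode the α and β subunits of PA28, the proteasome activator that interferon gamma induces. Psme1 gave 4107, 3967 and 3854 in the control and 2531, 3060 and 2525 with Ube2o shRNA, for a log2 fall of 0.46 (SE 0.12, adjusted p = 0.0266). Psme2 gave 833, 745 and 756 against 420, 629 and 527 and fell by 0.55 (SE 0.13, adjusted p = 0.0153). Psmb10, an immunoproteasome subunit, fell by 0.44 (adjusted p = 0.0302). The second probes of Psme1 and Psmb10 fell as well, by 0.45 and 0.46. Psme2b, a close copy of Psme2 whose probe may bind the same RNA, fell by 0.50 (adjusted p = 0.0345), and was named after its values were seen. In all 4 genes, which the test on these same arrays had picked, the 3 arrays with Ube2o shRNA lay below the 3 controls. That was so for 12.9% of all genes and 19.1% of those above background on at least 3 arrays.

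The gene of this list that rose was Calr, encoding calreticulin, a chaperone of the class I heavy chain. It gave 1170, 1762 and 1614 in the control and 1671, 2209 and 2223 with Ube2o shRNA, which was a log2 rise of 0.57 (SE 0.13, adjusted p = 0.0164). Its dimmer probe lay at background. The partners of the fallen genes in the immunoproteasome, Psmb9 and Psmb8, had log2 changes of -0.29 and -0.15 and did not pass, nor did Tap2, the other transporter subunit, at -0.27. With GFP shRNA replicate 1 left out, 0 of the 14 genes fell and 0 rose, and with Ube2o shRNA replicate 3 left out, 1 fell and 0 rose. Leaving out any other array left 1 or 2 falls, and with a background offset of 16, 0 genes passed.

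Of 21 other class I heavy chains and class I-like genes, 2 fell, 0 rose and 19 did not pass, with a median of -0.054. Among all genes 3.95% were lower and 2.91% higher, and among those above background on at least 3 arrays 6.99% and 5.18%. Cd1d1, which presents lipids to natural killer T cells, gave 393, 450.2 and 425 in the control and 271, 349 and 298 with Ube2o shRNA, and fell by 0.49 (SE 0.11, adjusted p = 0.0145). H2-T10, a non-classical heavy chain that does not bind peptide, gave 1365, 1704 and 1664 against 896, 1252 and 1112 and fell by 0.46 (SE 0.11, adjusted p = 0.026). Its 2 dimmer probes did not pass, with log2 changes of -0.29 and 0.15. In both genes, which the test on these same arrays had picked, the groups did not overlap. In that direction this held for 12.9% of all genes and 19.1% of those above background on at least 3 arrays. With GFP shRNA replicate 2 or Ube2o shRNA replicate 3 left out, or with an offset of 16, 0 genes of this list fell. With GFP shRNA replicate 3, Ube2o shRNA replicate 1 or Ube2o shRNA replicate 2 left out, 1 fell.

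Of 14 other measured genes of class II chains and class II loading, 1 fell, 2 rose and 11 did not pass, with a median of 0.0015. Among all genes 3.95% were lower and 2.91% higher, and among those above background on at least 3 arrays 6.99% and 5.18%. The one that fell was H2-DMb2, a β chain of H2-DM, the endosomal catalyst that removes the invariant chain peptide from class II. It gave 415, 434 and 428 in the control and 278, 341 and 316 with Ube2o shRNA, and fell by 0.47 (SE 0.11, adjusted p = 0.0173). Its dimmer probe lay at background on every array. H2-DMb1, its close relative, and H2-DMa, the α chain, were also lower on all 3 Ube2o shRNA arrays than on all 3 controls, with log2 changes of -0.36 (adjusted p = 0.0809) and -0.32 (adjusted p = 0.155), and did not pass. Groups did not overlap in that direction for 12.9% of all genes and 19.1% of those above background on at least 3 arrays. H2-DM genes thus lay above background on every array while H2-Ea, H2-Ob, H2-Aa and H2-Ab1 lay at background on all of them.

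The genes that rose were those of endosomal enzymes. Lgmn, encoding the asparaginyl endopeptidase legumain, which cuts the invariant chain and antigens, gave 1545, 2099 and 2063 in the control and 2359, 2598 and 2512 with Ube2o shRNA. The log2 rise was 0.53 (SE 0.12, adjusted p = 0.0164). Ifi30, encoding the thiol reductase GILT that unfolds antigens in endosomes, gave 559, 611 and 557 in the control and 578, 775 and 812 with Ube2o shRNA, and rose by 0.47 (SE 0.12, adjusted p = 0.0362). Its second probe rose by 0.50 (adjusted p = 0.0252). Ctss, the protease that completes invariant chain removal in professional antigen-presenting cells, lay above background on 1 of 6 arrays. With median scaling neither Lgmn nor Ifi30 passed, and Lgmn did not after subtraction of its chromosome's median change. Ifi30 did not pass with the replicate number as a block either. The fall of H2-DMb2 was lost without any 1 array other than GFP shRNA replicate 3. Of the 2 rises, 0 passed when either GFP shRNA replicate 1 or Ube2o shRNA replicate 3 was left out, and 1 when any other array was. With an offset of 16, 0 of the 14 genes passed.

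Of 16 measured regulators of MHC genes 1 fell, 0 rose and 15 did not pass, with a median of 0.045. Among all genes 3.95% were lower and 2.91% higher, and among those above background on at least 3 arrays 6.99% and 5.18%. Irf1, the interferon regulatory factor that acts on class I and Ciita promoters, gave 2933, 3442 and 3654 in the control and 2044, 2558 and 2273 with Ube2o shRNA. The log2 fall was 0.45 (SE 0.11, adjusted p = 0.0235), and 3 dimmer probes above background had log2 changes from -0.27 to -0.25 and did not pass. Nlrc5, the class I transactivator, lay above background on all 3 control arrays and on 1 with Ube2o shRNA (log2 change -0.18, adjusted p = 0.475). Among 8 genes of interferon gamma signalling 1 fell, 0 rose and the median was -0.093. This was Ifngr2, a chain of the interferon gamma receptor, which gave 1074, 1245 and 1318 in the control and 714, 1039 and 763 with Ube2o shRNA and fell by 0.48 (SE 0.12, adjusted p = 0.0218). Its 2 dimmer probes had log2 changes of -0.22 and -0.25 and did not pass. Ifng itself lay at background on every array. Of 15 interferon gamma inducible genes outside the MHC, 0 passed in either direction by limma (1 had an unadjusted p under 0.05), and the gene with the smallest p, Gbp7, had a log2 change of -0.30 (adjusted p = 0.167, unadjusted p = 0.017). Irf1 fell when GFP shRNA replicate 1 was left out and in no other such fit, and Ifngr2 only without Ube2o shRNA replicate 2.

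**Figure D4:**
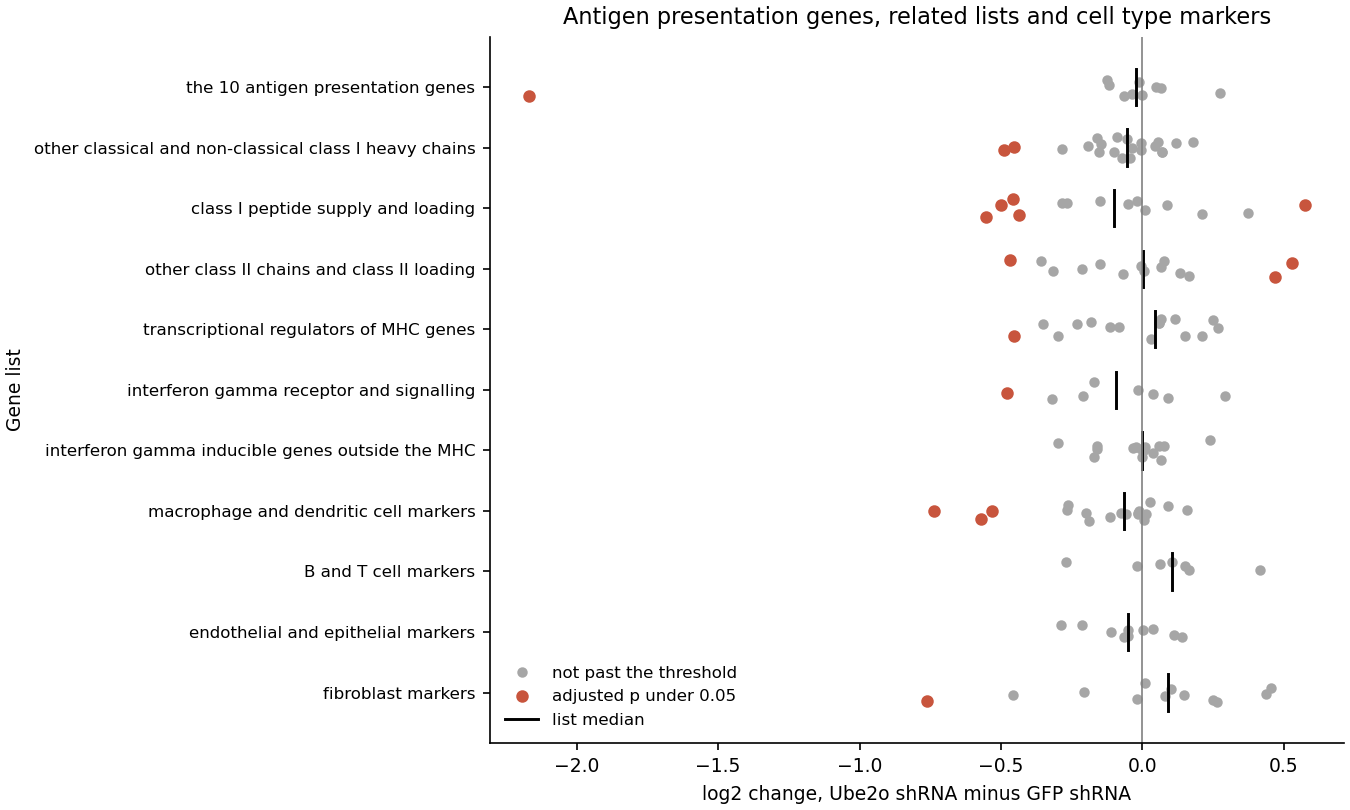
Log2 change, Ube2o shRNA minus GFP shRNA (horizontal axis), of each measured gene in the 10 antigen presentation genes, the related lists and the cell type markers (vertical axis), with a bar at each list's median. Cd74 at -2.17 stands apart from the other genes drawn, of which the next lowest is Pdgfra at -0.76.

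Macrophages and dendritic cells make class II, so their markers were followed. Of 18 markers of macrophages and dendritic cells, 3 fell, 0 rose and 15 did not pass, with a median of -0.067. Among all genes 3.95% were lower and 2.91% higher, and among those above background on at least 3 arrays 6.99% and 5.18%. The markers that fell were Aif1 (log2 change -0.74, adjusted p = 0.00311), Cd14 (-0.57, adjusted p = 0.00458) and Zbtb46 (-0.53, adjusted p = 0.00834). At these probes, which the test on these same arrays had picked, the Ube2o shRNA arrays all lay below the controls. The same held for 12.9% of all genes and 19.1% of those above background on at least 3 arrays. Dimmer probes of the same genes did not pass, with log2 changes of -0.12 (adjusted p = 0.738) and -0.27 (adjusted p = 0.352) for Aif1 and 0.10 (adjusted p = 0.749) for Zbtb46. Those of Aif1 passed the background limit on 1 control array each and on 0 with Ube2o shRNA, and that of Zbtb46 on 0 arrays. The summed normalized intensity of the 18 ran from 2428 to 2604 in the control and from 2106 to 2141 with Ube2o shRNA. These sums include the 3 called genes and 9 markers at background on all 6 arrays, so they do not measure the number of such cells. The pan-leukocyte gene Ptprc and the macrophage genes Adgre1, Cd68, Itgam, Mpeg1, Mrc1, Laptm5 and Tyrobp, with the dendritic cell gene Flt3, lay at background on all 6 arrays. Only 4 of the 18, Aif1, Cd14, Lyz2 and Zbtb46, lay above background on all of them. With an offset of 16, 0 of the 18 passed. The part of these cell types in the fall of Cd74 was not tested.

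Of 7 measured B and T cell markers 0 passed by limma (2 had an unadjusted p under 0.05), and the B cell genes Cd79b and Pax5 lay at background on every array. Cd3e had the smallest p of that list, with a log2 change of 0.42 (adjusted p = 0.0515), and it passed in 6 alternatives. The other probe of Cd3e lay at background on every array (adjusted p = 0.437), as did Cd2 and Cd3d of the same list. The summed intensity of the list was 565 to 647 in the control and 643 to 663 with Ube2o shRNA, with 4 of the 7 genes at background on every array. Of 10 endothelial and epithelial markers 0 passed by limma (1 had an unadjusted p under 0.05), with Krt8 the nearest (log2 change -0.29, adjusted p = 0.295, unadjusted p = 0.0465) and sums of 877 to 903 and 826 to 890. In that list 5 of the 10 lay at background on every array. Of 12 fibroblast markers 1 fell, Pdgfra (log2 change -0.76, adjusted p = 0.000333), and 0 rose. Among all genes 3.95% were lower and 2.91% higher, and among those above background on at least 3 arrays 6.99% and 5.18%. With no background correction, in the series matrix values and with dim probes filtered out, 2 of the 12 rose and 2 fell. The same counts came with trended and robust moderation. With median scaling, the replicate block or Ube2o shRNA replicate 2 left out, 0 rose and 2 fell. With GFP shRNA replicate 2 left out, 1 rose and 1 fell. A dimmer probe of Pdgfra, above background on 1 array only, had a log2 change of 0.10 and did not pass. The sums of the fibroblast markers were 78586 to 83599 and 85224 to 91253.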

How the data were processed

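Per the labels' protocols, biotin-labelled cRNA was hybridised to single-colour Illumina arrays. The authors deposited a table of linear probe intensity without detection p-values, and a series matrix of log2 values, which the data show to be quantile normalized (the same sorted values on each array). How either was summarised or corrected is not given in the sources used here. Arrays were grouped by their titles, 3 to each shRNA, although 1 other label calls the Ube2o reagent an siRNA. Intensities were corrected with normexp (saddle point, offset 50), which compresses changes of dim genes, quantile normalized and put on the log2 scale. All 45281 probes were tested with limma 3.58.1 in R 4.3.3 (lmFit, eBayes, two-sided), p-values were adjusted across the whole probe set by Benjamini and Hochberg, and the threshold was 0.05. Background was the mode and lower spread of each array's log2 signal, at a one-sided level of 0.05. Probes were named from the platform annotation, updated through the RefSeq table of GRCm38.p6, and 35784 had a symbol. A gene is represented by its probe with the highest mean, and intervals are unadjusted.

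All members were named, and of each further list up to 4 of the genes that passed, in order of p, or else its 1 lowest-p gene. Members, lists and most settings were chosen with earlier results of these data known. Alternatives covered background correction, offset, scaling, series matrix values, moderation, array weights, replicate block, a filter on dim probes, chromosome medians, probe averaging and each array left out. The fit was tested on simulated data with a common spread and with changes at brighter probes only. That test therefore does not cover dim probes or unequal spreads. The number of arrays limits the precision.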

Additional observations from a re-analysis of the deposited data

How the results depend on the processing

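Cd74 was the 1 member called in every alternative run, lower each time, and no other member's brightest probe passed in any. The number of probes called depended on the processing: 2236 as reported, 3966 with no background correction, 584 with an offset of 16, 3941 in the series matrix values, 3452 with dim probes filtered out, and between 1448 and 1628 with 1 array left out. With median scaling 567 were higher and 1544 lower, against 1019 and 1217 as reported. Uncalled members changed sign in some fits. H2-D1 had a log2 change of -0.049 with median scaling and between -0.061 and 0.13 with 1 array left out, B2m 0.018 with probes averaged, Tap1 between -0.046 and 0.15 with 1 array left out, and Tapbp 0.012 with array weights, 0.17 with probes averaged and between -0.17 and 0.065 with 1 array left out. The cause of these changes was not tested. Of the 16 called genes named from the further lists, 15 did not pass with an offset of 16, 3 with median scaling, 2 with chromosome medians subtracted and 1 with the replicate block, and between 7 and 11 with 1 array left out. Same-numbered arrays did not deviate together (correlations of 0.025, -0.116 and 0.08). With the replicate number as a block, 2139 probes were called and the log2 change of Cd74 was -2.17. H2-Aa, H2-Ab1, H2-Eb1 and Ciita were removed by the filter on dim probes.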

Other observations

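Of the 10 genes, 7 lie in the MHC of mouse chromosome 17. Between Tapbp and H2-M2 on that chromosome, 177 genes were measured, of which 3 were called higher (1.69%), 6 lower (3.39%), with a median log2 change of 0.011. The whole of chromosome 17 had 2.36% higher and 3.39% lower of 973 genes, and a median of 0.0089. The 6 that fell held H2-DMb2, H2-T10 and Aif1, described above, and Sapcd1. The other 2, named after their values were seen, were Cdsn, encoding corneodesmosin (log2 change -1.35, adjusted p = 3.65e-07), and Ubd, encoding the interferon-inducible ubiquitin-like protein FAT10 (log2 change -0.80, adjusted p = 0.000415). The 3 called higher, also named after their values were seen, were Prrc2a (log2 change 0.70, adjusted p = 0.0105), D17H6S56E-5 (0.61, adjusted p = 0.0054) and Mrps18b (0.42, adjusted p = 0.0368).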
